A study of Mus musculus with 12 samples.

Results

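The BCL2 family decides whether a cell releases cytochrome c from its mitochondria and enters apoptosis. Here 10 of its genes were followed through RNA-seq of diabetic mouse wounds: Bcl2l11, Bcl2, Bcl2l1, Mcl1, Bax, Bak1, Bbc3, Pmaip1, Bid and Bad. They were chosen by name as pro- and anti-apoptotic regulators, with earlier results of these data known. Each matched 1 of the 54232 gene identifiers listed per library. All 10 passed the filter on low counts that left 18618 genes for testing. Bcl2l11 entered the set with its difference between patched and unpatched wounds already known, so its values in those comparisons are given as a description, without a test.

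All mice were male, of the C57BLKS/J strain and Lepr (db/db), a genotype that lacks functional long-form leptin receptor signalling and serves as a model of obesity and type 2 diabetes. The sample labels give an age of 12.5 weeks and the series' design text 12 weeks at wounding, and which time point the first age refers to is not stated. Full-thickness punch wounds of 6 mm on the back were covered at once and sampled on day 10. Wounds in the TD group (5 libraries) had a Tegaderm film alone. Wounds in the Strain group (4 libraries) wore a patch with a strain of about 30%. Wounds in the No Strain group (3 libraries) wore a patch that imposed no strain. No wound of a mouse without the db/db genotype and no unwounded skin entered the comparisons. The labels do not say whether wounds came from separate mice, so p-values measure the spread between these libraries only.

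Family members share short BCL2 homology (BH) segments. BCL-2 (Bcl2), BCL-XL (Bcl2l1) and MCL-1 (Mcl1) hold apoptosis back, BAX and BAK (Bak1) form the pores in the outer mitochondrial membrane, and the BH3-only proteins BIM (Bcl2l11), BID, PUMA (Bbc3), NOXA (Pmaip1) and BAD carry the death signal to them. The BH3 segment of one member binds a groove on another, and the balance of the classes sets how readily a cell dies. In a healing wound, apoptosis of spent neutrophils and later of fibroblasts accompanies the end of inflammation and the maturing of scar tissue.

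The BH3 segment is the sequence feature that all these classes have in common, and it is shown for the 5 members with the largest log2 fold change in No Strain against TD and, beside them, for Bcl2. Each line holds 45 coding bases of the GENCODE M21 annotation on GRCm38, 5′ to 3′. Capitals mark the 6 codons for leucine, any 3 residues, glycine, alanine or serine, and aspartate, a pattern that was required to be followed by an acidic residue or glycine and that occurred once in each protein.
Bcl2l11 (chr2:128147138-128147182, plus strand, exon 3): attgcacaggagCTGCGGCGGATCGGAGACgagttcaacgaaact
Bid (chr6:120897283-120897327, minus strand, exon 4): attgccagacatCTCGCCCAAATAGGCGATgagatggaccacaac
Bax (chr7:45465991-45466035, minus strand, exon 3): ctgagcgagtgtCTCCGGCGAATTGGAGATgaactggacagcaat
Bak1 (chr17:27022525-27022569, minus strand, exon 4): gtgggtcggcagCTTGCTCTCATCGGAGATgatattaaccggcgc
Mcl1 (chr3:95659424-95659468, plus strand, exon 1): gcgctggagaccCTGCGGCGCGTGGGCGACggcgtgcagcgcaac
Bcl2 (chr1:106712569-106712613, minus strand, exon 1): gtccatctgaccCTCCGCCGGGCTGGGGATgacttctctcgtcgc
In all 6 lines the capitals begin with a leucine codon and end with an aspartate codon.

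Total counts per library ran from 20354677 to 25059371, and the members had 206 to 11148 counts in a library. Every one of 19 pairs of libraries within a group differed by more than sampling noise, with a chi-square per degree of freedom of 9.53 to 75.0, so no library was counted as a copy of another. The sample titles number the TD wounds 1 to 6 and the patched wounds 7 to 15. What the numbers stand for is not stated, and an effect of that order cannot be told apart from that of the patches. The titles also hold a letter of unstated meaning, R for most TD wounds and L for most wounds of each patch group. A fit with the letter as a covariate therefore separates letter and patch only in part. Fibroblast markers, which define wound connective tissue, were present in all libraries at summed levels of 42118 to 73279 CPM, which are counts scaled to a common library total after TMM correction of that total.

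Several cell marker lists moved between TD and the patched wounds. Of 10 neutrophil markers, 9 were higher in Strain and 7 in No Strain than in TD by edgeR's quasi-likelihood test (adjusted p under 0.05), and none was lower. Their summed level was 538 to 1726 CPM in TD, 1009 to 8812 CPM in Strain and 2331 to 5326 CPM in No Strain. S100a8 and S100a9 made up 58.9% to 95.3% of that sum in a library. The other 8 markers summed to 209 to 261 CPM in TD, 389 to 591 CPM in Strain and 433 to 973 CPM in No Strain, with no overlap between TD and the patched wounds. Of 8 T cell markers, 4 and 3 were higher, with sums of 23.8 to 33.9, 36.1 to 94.9 and 44.2 to 74.9 CPM in the same order. Of 9 macrophage markers 1 was higher in each comparison, and of 6 endothelial markers 3 were higher in each. Of 6 basal keratinocyte markers, 2 and 3 were lower. Of 6 adipocyte markers, 5 and 6 were lower, with sums of 2255 to 4148, 1482 to 2266 and 1356 to 1837 CPM, and of 10 skeletal muscle markers, 7 and 3 were lower. The muscle sums were 6399 to 15087 CPM in TD, 2839 to 5425 CPM in Strain and 4014 to 8930 CPM in No Strain. Of 7 fibroblast markers none passed in either comparison by edgeR or DESeq2, and 1 had an unadjusted p under 0.05 in each by edgeR. No marker of any list was at 0 in all libraries. In bulk tissue, fewer cells of a type and less RNA per cell cannot be told apart, and the part of these lists in the values below was not tested except where a fit with a list as a covariate is given.

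Against the film dressing, the genes of the pore formers were higher under both patches. Bax and Bak1 rose in both patch groups, and Bid and Mcl1 rose in the No Strain group. Bcl2, Bcl2l1, Bbc3, Pmaip1 and Bad did not pass the test in either group. No member passed the test as lower. Counted over the 9 members other than Bcl2l11, 2 were called in Strain against TD and 4 in No Strain against TD, all higher, by edgeR with Benjamini-Hochberg adjustment over all 18618 genes. The background was 12.6% of all genes called in the first comparison (6.2% as higher and 6.41% as lower) and 17.8% in the second (9.35% as higher and 8.4% as lower). Without Strain replicate 2 the first count was 1, where 4.75% of all genes tested were called. Without No Strain replicate 3 the second count was 2, where 7.88% were called. Adding either the neutrophil or the skeletal muscle list to the fit made both counts 0. The muscle fit called 0.00537% of all genes in the first comparison and 2.64% in the second, and the neutrophil fit 0% in each. Calls were thus fewer among all genes too in these fits. Both comparisons use the same 5 TD libraries, so the calls in one are not independent of those in the other. The members were chosen with earlier results of these data known, so their counts do not come from a blind choice.

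**Figure D1:**
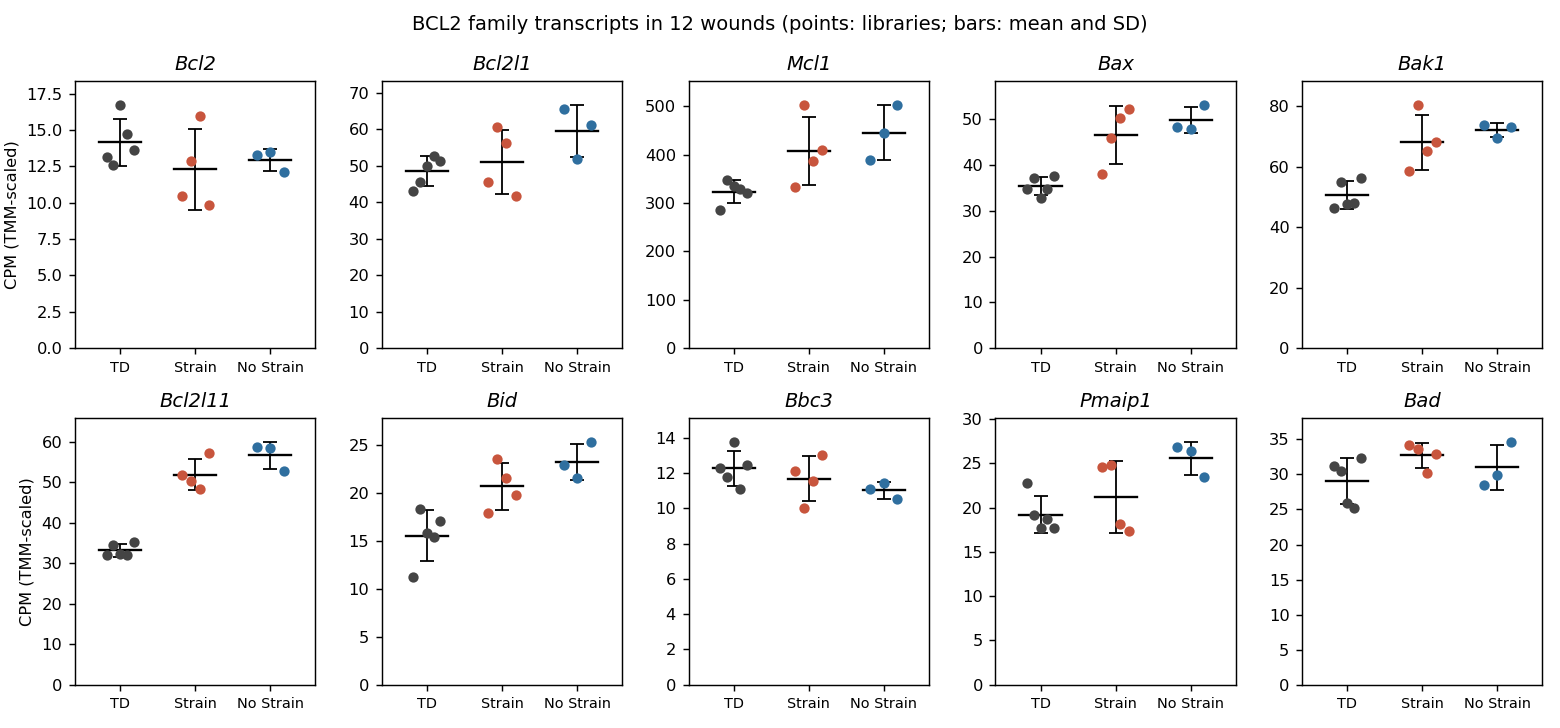
Expression of the 10 members in each library, in CPM on a linear axis from 0, with 1 panel per gene. Points are libraries, and bars give the mean and SD of the 5 TD, 4 Strain and 3 No Strain libraries. Bcl2l11, Bax and Bak1 in TD sit wholly below both patch groups, while the Bcl2 and Bbc3 groups overlap.

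Bcl2l11 encodes BIM, a BH3-only protein that binds every anti-apoptotic member and can activate BAX and BAK directly. Its 5 TD libraries read 32.0, 34.4, 32.2, 32.1 and 35.2 CPM. The 4 Strain libraries read 51.7, 50.2, 48.2 and 57.2 CPM, and the 3 No Strain libraries 58.6, 58.4 and 52.8 CPM. The lowest patched wound, Strain replicate 3, therefore stood above the highest unpatched one. Group means were 33.2 ± 1.52 CPM in TD (SD, n = 5), 51.8 ± 3.87 in Strain (SD, n = 4) and 56.6 ± 3.28 in No Strain (SD, n = 3). The fitted log2 fold change was 0.64 for Strain and 0.77 for No Strain, each against TD, and leaving out any 1 library kept these between 0.59 and 0.67 and between 0.74 and 0.82. With the mean log2 CPM of the neutrophil list in the fit, the 2 fold changes were 0.70 and 0.85, and with that of the skeletal muscle list 0.47 and 0.67. No other gene's exons overlap those of Bcl2l11 (chr2:128126038-128162547, plus strand, GRCm38).

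BAX and BAK are the effectors that oligomerise and open the outer mitochondrial membrane, and either can do so without the other. Bax read 34.8, 37.1, 32.8, 34.8 and 37.7 CPM in TD. It read 38.0, 46.0, 50.4 and 52.3 CPM in Strain and 48.4, 48.0 and 53.1 CPM in No Strain. Every patched library was above every TD library, but Strain replicate 1 exceeded TD replicate 5 only narrowly. The log2 fold change of Bax was 0.40 (SE 0.0870, adjusted p = 0.0165) in Strain and 0.49 (SE 0.0939, adjusted p = 0.00684) in No Strain. Without Strain replicate 2 the first call was lost, with an adjusted p of 0.0531. With the neutrophil list as a covariate the fold changes were 0.44 and 0.56, and neither passed the threshold; with the muscle list they were 0.50 and 0.55, also without a call.

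Bak1 gave fold changes close to those of Bax. It read 46.4, 55.0, 47.5, 47.8 and 56.3 CPM in TD, 58.6, 80.3, 65.0 and 68.2 CPM in Strain, and 73.6, 69.4 and 73.0 CPM in No Strain. The TD libraries again lay below all patched ones, with Strain replicate 1 the nearest to them. The log2 fold change was 0.43 (SE 0.0908, adjusted p = 0.0152) in Strain and 0.51 (SE 0.0979, adjusted p = 0.00708) in No Strain, and 0.31 and 0.34 with the neutrophil list as a covariate, where neither passed. With the muscle list the values were 0.42 (adjusted p = 0.496) and 0.50 (adjusted p = 0.0766). Exons of other genes cover 25.5% of the exon length of Bak1 (Ggnbp1) and 12.2% of that of Bax (Gm45808). Gm45808 lies on the same strand as Bax, so strand could not separate reads from that stretch. Ggnbp1 lies on the strand opposite to Bak1, but the library kit does not mark strand. Reads from the Bak1 stretch therefore cannot be assigned to 1 gene. The same holds for 20.5% of the exon length of Bad (Gpr137) and 6.09% of that of Bcl2 (D630008O14Rik).

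Bid encodes a BH3-only protein that caspase-8 cleaves, which links death receptors on the cell surface to the mitochondria. It read 11.3, 18.4, 15.8, 15.4 and 17.1 CPM in TD, 17.9, 23.5, 21.5 and 19.8 CPM in Strain, and 22.9, 21.6 and 25.3 CPM in No Strain. The Strain range overlapped that of TD through TD replicate 2, and the No Strain range did not. The log2 fold change was 0.58 (SE 0.140, adjusted p = 0.0180) in No Strain. In Strain it was 0.41 (SE 0.130, adjusted p = 0.0596), short of the threshold with edgeR and past it with DESeq2 (adjusted p = 0.0304). The No Strain call was lost without No Strain replicate 1 (adjusted p = 0.0532) or replicate 3 (adjusted p = 0.0747). With the neutrophil list as a covariate the values of Bid were 0.41 in Strain and 0.58 in No Strain. With the muscle list they were 0.54 and 0.66. Neither fit gave a call. Exons of Bcl2l13, another family gene, overlap 17.7% of the exon length of Bid.

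The other BH3-only members did not pass the test. Pmaip1, whose product NOXA binds MCL-1 and speeds its breakdown, read 22.8, 19.1, 17.7, 18.7 and 17.7 CPM in TD and 24.5, 24.8, 18.1 and 17.3 CPM in Strain. In No Strain it read 26.8, 26.4 and 23.4 CPM, above all TD libraries. Its log2 fold change was 0.14 (SE 0.125, adjusted p = 0.476) in Strain and 0.41 (SE 0.134, adjusted p = 0.0535) in No Strain, and the latter passed with DESeq2 (adjusted p = 0.0259) and with only the 2 groups compared in the fit (adjusted p = 0.0240). The Strain libraries fell into a higher and a lower pair, replicates 1 and 2 against 3 and 4.

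Bbc3, which encodes PUMA, a transcriptional target of p53, ranged from 11.1 to 13.8 CPM in TD, 9.99 to 13.0 in Strain and 10.5 to 11.5 in No Strain. Its log2 fold changes were -0.07 (SE 0.0938, adjusted p = 0.648) and -0.16 (SE 0.103, adjusted p = 0.315). Bad, whose product is held inactive by phosphorylation downstream of growth factor signals, ranged from 25.2 to 32.4, 30.1 to 34.2 and 28.5 to 34.6 CPM in the same order. Its log2 fold changes were 0.17 (SE 0.0904, adjusted p = 0.235) and 0.09 (SE 0.0984, adjusted p = 0.542). For both genes the 3 groups overlapped.

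Among the anti-apoptotic members, Mcl1 passed the test in No Strain against TD, and Bcl2 and Bcl2l1 passed in neither comparison. MCL-1 is a short-lived protein on which neutrophils and other myeloid cells depend for survival. Its transcript read 286, 347, 335, 330 and 320 CPM in TD, 333, 502, 388 and 408 CPM in Strain, and 389, 445 and 502 CPM in No Strain. Strain replicate 1 lay inside the TD range, and the other patched libraries lay above it. The log2 fold change was 0.46 (SE 0.125, adjusted p = 0.0279) in No Strain and 0.33 (SE 0.116, adjusted p = 0.0807) in Strain. The difference between the patch groups was itself not called (adjusted p = 0.947). The No Strain call was lost without any one of TD replicates 1 and 4 and No Strain replicates 2 and 3 (adjusted p of 0.0542 to 0.124) and with the title letter (L or R) as a covariate (adjusted p = 0.0751). With the neutrophil list as a covariate the Mcl1 values were -0.057 in No Strain and -0.018 in Strain. With the muscle list they were 0.56 (adjusted p = 0.101, edgeR) and 0.50 (adjusted p = 0.513, edgeR). Neither fit gave a call.

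Bcl2, the founding member, read 13.1, 12.6, 16.7, 14.7 and 13.6 CPM in TD, 10.5, 12.9, 15.96 and 9.87 CPM in Strain, and 13.3, 13.5 and 12.1 CPM in No Strain. Its log2 fold changes were -0.20 (SE 0.140, adjusted p = 0.367) and -0.13 (SE 0.152, adjusted p = 0.599). The Strain libraries ran from below the TD range to within it. Bcl2l1, which encodes the long-lived survival protein BCL-XL and its shorter pro-apoptotic splice form, read 43.1, 45.7, 50.02, 52.8 and 51.4 CPM in TD, 45.6, 60.6, 56.3 and 41.8 CPM in Strain, and 65.6, 51.7 and 61.1 CPM in No Strain. Its log2 fold changes were 0.07 (SE 0.115, adjusted p = 0.716) and 0.29 (SE 0.124, adjusted p = 0.125). The counts are per gene, so the splice forms of Bcl2l1, Bcl2l11 and Mcl1, which can act in opposite directions or with different strength, were not resolved.

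**Figure D2:**
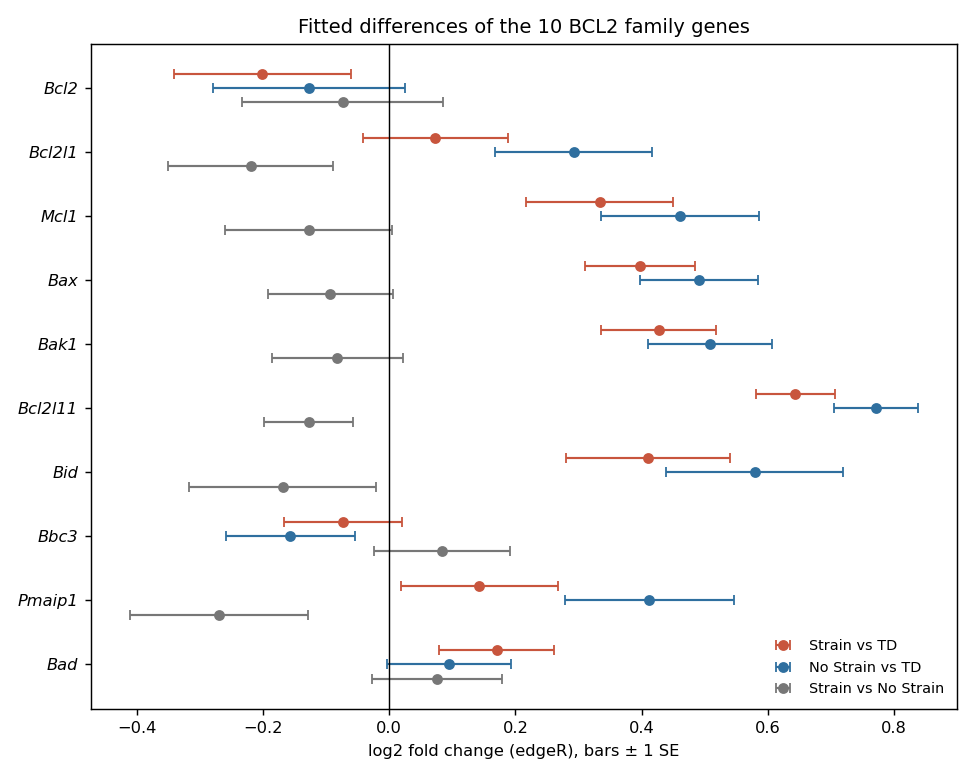
Fitted log2 fold change of each member in Strain against TD, No Strain against TD and Strain against No Strain, with bars of 1 standard error from edgeR. Bax and Bak1 sit near 0.4 to 0.5 in both comparisons with TD, and every Strain against No Strain value lies between -0.27 and 0.08; the Bcl2l11 values against TD are a description.

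Ranges that do not overlap need no model. Of the 9 members other than Bcl2l11, 2 had every Strain library above every TD library (Bax and Bak1), where 7.47% of all genes tested did so. In No Strain the number was 5 (those with Mcl1, Pmaip1 and Bid), where 14.3% of all genes did so. None lay wholly below TD, as 7.15% of all genes did in Strain and 12.5% in No Strain. The median log2 fold change of the 9 members was 0.17 in Strain and 0.41 in No Strain, beside 0.02 and 0.00 over all genes tested. Bcl2l11 lay wholly above TD in both groups, a difference known when it was chosen. The other 9 members were also chosen with earlier results of these data known.

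Whether strain acts beyond the patch itself is addressed by Strain against No Strain, the comparison that named none of the members. No member passed the test by edgeR, none had an unadjusted p under 0.05, and DESeq2 called none either. The background was 0% of 18618 genes called by edgeR, 5.61% at an unadjusted p under 0.05. DESeq2 called 33 of 17170 genes, or 0.192%. Bcl2l11 differed by -0.13 (SE 0.0708, adjusted p = 0.881, edgeR), with a 95% confidence interval of -0.28 to 0.03. The log2 difference that was largest in size was that of Pmaip1, -0.27 (SE 0.141, adjusted p = 0.872, edgeR), with an interval of -0.58 to 0.04. Bax and Bak1 gave -0.09 (interval -0.31 to 0.12) and -0.08 (interval -0.31 to 0.14), and Mcl1 and Bid -0.13 (interval -0.42 to 0.16) and -0.17 (interval -0.49 to 0.15). Bcl2l1 gave -0.22 (interval -0.50 to 0.07), Bcl2 -0.07 (interval -0.42 to 0.27), Bbc3 0.08 (interval -0.15 to 0.32) and Bad 0.08 (interval -0.15 to 0.30). In all 10 members the Strain and No Strain ranges overlapped, where 5.62% of all genes tested had ranges that did not. These intervals, each for a single gene, do not show that the 2 patches gave equal levels.

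Levels were compared between genes only per length, as CPM per kilobase of exon (FPKM). In TD wounds Mcl1 was the most abundant member at 94.7 ± 6.84 FPKM (SD, n = 5). Bax at 22.5 ± 1.25 and Bak1 at 21.0 ± 1.93 followed and did not differ beyond their spread. Bad at 11.4 ± 1.28 and Bcl2l1 at 10.6 ± 0.887 came next, again with overlapping libraries, and then Pmaip1 at 7.02 ± 0.772 and Bbc3 at a mean of 5.78 (range 5.21 to 6.47), also overlapping. Bid at 4.39 ± 0.753 and Bcl2l11 at 4.13 ± 0.190 overlapped as well, and Bcl2 was the least abundant at 1.55 ± 0.178 FPKM. All other neighbours in this order were separated, with no TD library of the lower gene reaching the higher one.

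Mcl1, Bax and Bak1 also headed the order in the patched wounds, and Bcl2 closed it. Mcl1 stood at 119 ± 20.6 FPKM in Strain (SD, n = 4) and 130 ± 16.5 in No Strain (SD, n = 3), and Bcl2 at 1.34 ± 0.302 and 1.42 ± 0.0839. Bcl2l11 went from rank 9 in TD to rank 7 in both patch groups, at 6.46 ± 0.482 and 7.05 ± 0.409 FPKM, ahead of Bid and Bbc3. In Strain its libraries overlapped those of its neighbours Pmaip1 and Bid. In No Strain they lay below those of Pmaip1 and overlapped those of Bid.

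**Figure D3:**
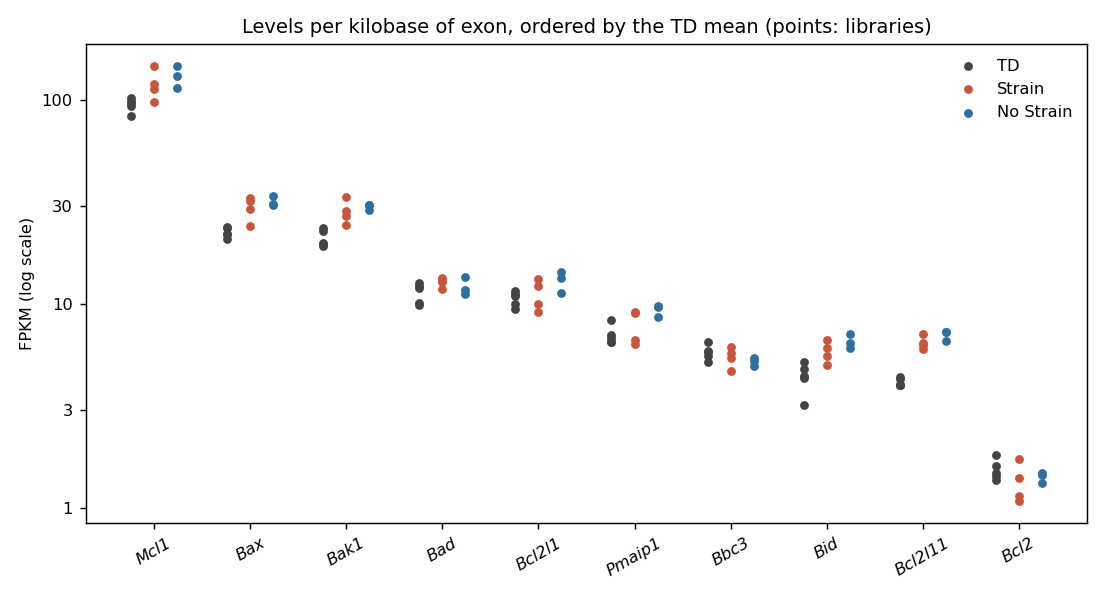
Level of each member per length, in FPKM on a log axis, by group, with 1 point per library and genes ordered by the TD mean. Mcl1 tops the order in all 3 groups (94.7 FPKM in TD) and Bcl2 is at its foot (1.55 FPKM in TD), with Bcl2l11 at 4.13 FPKM in TD and 7.05 FPKM in No Strain.

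Ratios within a library set the pro-apoptotic transcripts beside the anti-apoptotic ones without any scaling between libraries, and are given as a description because Bcl2l11 and several partners were known to differ. Bcl2l11 over Bcl2 was 2.71 ± 0.370 in TD (range 2.20 to 3.12), 5.03 ± 1.38 in Strain (range 3.44 to 6.61) and 4.98 ± 0.0550 in No Strain (range 4.93 to 5.04). Bax over Bcl2 was 14.8 ± 2.24, 22.7 ± 5.50 and 22.4 ± 2.68, with the highest TD value of 17.2 below the lowest patched one of 18.3. For Bcl2l11 over Bcl2l1 the means were 0.392 ± 0.0359, 0.598 ± 0.146 and 0.550 ± 0.0828. The patched libraries were above all TD libraries in each of these 3 ratios.

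Against Mcl1 the patched libraries did not all lie above TD. Bcl2l11 over Mcl1 had higher means in the patched wounds, 0.0438 in TD, 0.0553 in Strain and 0.0549 in No Strain. It ranged from 0.0408 to 0.0478 in TD, 0.0426 to 0.0661 in Strain and 0.0448 to 0.0642 in No Strain, so the groups overlapped. Bak1 over Mcl1, the pair of an effector and its main guard, ranged from 0.201 to 0.250, 0.227 to 0.250 and 0.207 to 0.269. Its means were 0.223, 0.238 and 0.232 in the same order. Transcript ratios are not protein ratios, and the cells that hold each transcript may differ.

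**Figure D4:**
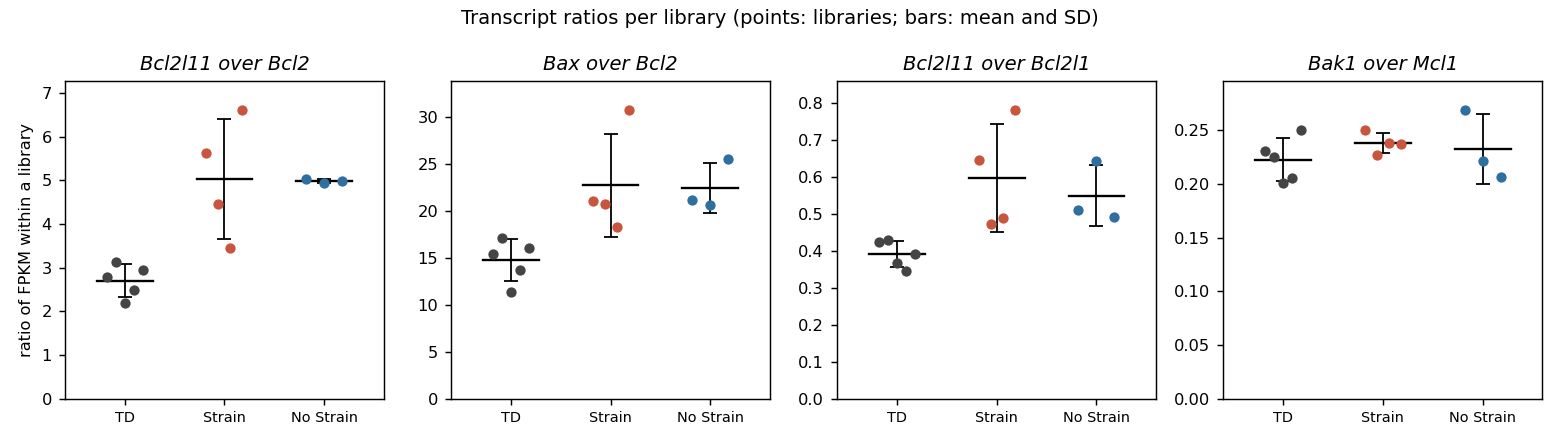
Ratios of FPKM within each library for 4 pairs of members, on linear axes from 0, with points for libraries and bars for the mean and SD of each group. The patched libraries lie above TD for Bcl2l11 over Bcl2, Bax over Bcl2 and Bcl2l11 over Bcl2l1, and the groups overlap for Bak1 over Mcl1.

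The members were also ordered by how closely their profile over the 12 libraries followed that of Bcl2l11, measured as the root mean square difference of z-scored log2 CPM, where 0 is an identical profile. Bak1 (0.450) ranked 148 and Bax (0.474) ranked 206 among the 18617 other genes tested, then Bid (0.619) at 975 and Mcl1 (0.699) at 1706. Bbc3 ranked 13355 and Bcl2 14536. The 5 closest genes of all were Ubb, a polyubiquitin gene (0.264), Wtap, a subunit of the RNA methylation complex (0.269), Abracl (0.271), Tmem14c, a mitochondrial carrier for haem synthesis (0.273), and Dnajc8, a splicing-associated chaperone (0.288). Ubb read 533 ± 11.3 CPM in TD, 601 ± 17.5 in Strain and 638 ± 8.82 in No Strain, and Abracl 30.4 ± 1.26, 39.6 ± 1.84 and 39.8 ± 1.69 CPM. All these profiles share the same libraries and group means, and the ranking is a description.

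The rest of the family was read from a list of 15 further genes, of which 13 were tested and Bcl2l10 and Hrk were too low. In each comparison with TD, 2 rose and 1 fell, with median log2 fold changes of 0.17 and 0.22. Over all genes tested, edgeR called 12.6% in Strain and 17.8% in No Strain. By DESeq2 2 rose and 2 fell in Strain, and 2 rose and 1 fell in No Strain. DESeq2 called 18.9% and 23.5% of all genes. The gene that fell by edgeR was Bcl2l2, which encodes the survival protein BCL-W. It read 60.1, 52.7, 57.3, 60.5 and 58.2 CPM in TD, 47.1, 46.3, 48.6 and 47.3 CPM in Strain, and 40.7, 45.1 and 48.0 CPM in No Strain, with every patched library below every TD library. Its log2 fold change was -0.29 (SE 0.0594, adjusted p = 0.0139) in Strain and -0.37 (SE 0.0652, adjusted p = 0.00500) in No Strain. Its values were -0.37 and -0.49 with the neutrophil list as a covariate, without a call. Exons of Gm20521 overlap 13.3% of its exon length.

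The genes that rose by edgeR were Bcl2a1a and Bcl2a1b, copies of the A1 survival gene, which neutrophils and activated lymphocytes express. Bcl2a1a went from 1.45 ± 0.275 CPM in TD (SD, n = 5) to 3.84 ± 1.42 in Strain (SD, n = 4) and 3.85 ± 1.08 in No Strain (SD, n = 3). Its log2 fold change was 1.40 in both (adjusted p = 0.00917 and 0.00719, edgeR). Bcl2a1b gave 1.12 and 1.21 (adjusted p = 0.00715 and 0.00392, edgeR). Exons of Gm29094, on the same strand, overlap 49.1% of the exon length of Bcl2a1b. The third copy tested, Bcl2a1d, was not called by edgeR in either comparison. It read 2.18 to 4.58 CPM in TD, 3.88 to 10.5 CPM in Strain and 4.74 to 7.07 CPM in No Strain. The A1 copies are nearly identical, so how reads were divided among them is uncertain. Summed over Bcl2a1a, Bcl2a1b and Bcl2a1d, they reached 5.27 to 8.13 CPM in TD, 10.8 to 21.1 CPM in Strain and 12.5 to 16.1 CPM in No Strain. The neutrophil and T cell lists moved the same way, as given above. With the neutrophil list as a covariate Bcl2a1a gave 0.88 and 0.68 and Bcl2a1b 1.34 and 1.54, without a call.

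Downstream of the mitochondria, of 14 apoptosome and caspase genes 1 rose and none fell in each comparison with TD, with medians of 0.05 and 0.07. The share of all genes called by edgeR was 12.6% in Strain and 17.8% in No Strain. By DESeq2 2 genes of this list rose and 0 fell in each comparison, beside 18.9% and 23.5% of all genes called. The gene of this list that rose by edgeR was Birc3, which encodes the inhibitor of apoptosis cIAP2 and is a target of NF-kB. It read 58.3, 58.0, 54.8, 56.9 and 52.7 CPM in TD, 93.1, 123, 79.0 and 67.6 CPM in Strain, and 107, 103 and 110.4 CPM in No Strain, with every patched library above every TD library. The log2 fold changes of Birc3 were 0.69 (SE 0.135, adjusted p = 0.0119, edgeR) and 0.93 (SE 0.145, adjusted p = 0.00348, edgeR), and the Strain call was lost with the title letter as a covariate (adjusted p = 0.0526). With the neutrophil list as a covariate the Birc3 values were 0.19 and 0.21, without a call in either comparison. Apaf1, the scaffold of the apoptosome, had adjusted p-values of 0.0611 and 0.0519.

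In the death receptor pathway, which meets the family at Bid, 1 of 11 genes rose in Strain and 4 in No Strain by edgeR, and none fell. By DESeq2 the counts were 3 and 4, also with none lower. Of all genes tested, edgeR called 12.6% and 17.8% in these comparisons, and DESeq2 18.9% and 23.5%. Tnf, the inflammatory ligand, read 3.62, 3.25, 5.74, 4.40 and 3.24 CPM in TD, 6.36, 14.2, 9.73 and 9.30 CPM in Strain, and 10.3, 18.9 and 8.41 CPM in No Strain. No patched library overlapped the TD range, and the log2 fold changes were 1.29 (SE 0.288, adjusted p = 0.0181, edgeR) and 1.63 (SE 0.305, adjusted p = 0.00657, edgeR). In No Strain Fasl, the ligand of the Fas receptor, also rose, by 2.22 (SE 0.513, adjusted p = 0.0150, edgeR), from 0.250 ± 0.135 to 1.17 ± 0.489 CPM, on 1 to 9 counts per TD library and 14 to 36 per No Strain library. Casp8, the caspase that cleaves BID, rose by 0.42 (SE 0.106, adjusted p = 0.0215, edgeR), and Tnfrsf1a, a TNF receptor named here after its value was seen, by 0.28 (SE 0.0733, adjusted p = 0.0249, edgeR). The Strain call of Tnf was lost without Strain replicate 2 (adjusted p = 0.0609), and that of Fasl without No Strain replicate 1 (0.0670). Casp8 lost its call without TD replicate 2 or No Strain replicate 1 or 3 (0.0517 to 0.0966), and Tnfrsf1a without TD replicate 3 or 4 or No Strain replicate 1 or 3 (0.0543 to 0.110). With the title letter as a covariate Tnf in Strain (0.0662) and Casp8 (0.0536) and Tnfrsf1a (0.0688) in No Strain lost their calls. With the neutrophil list as a covariate no gene of all 18618 was called, these among them. The No Strain values there were 1.86 for Tnf, 3.50 for Fasl, 0.16 for Casp8 and -0.016 for Tnfrsf1a. In Strain Casp8 had a log2 fold change of 0.30 and an adjusted p of 0.0636 by edgeR. It passed there with DESeq2 (adjusted p = 0.0389) and by edgeR without TD replicate 5 (adjusted p = 0.0481). Tnfrsf1a also passed in Strain with DESeq2 (0.19, adjusted p = 0.0312).

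Among 12 genes known to control the transcription or turnover of family members, none rose and 1 fell in Strain, and 1 rose and 1 fell in No Strain. The background was again 12.6% and 17.8% of all genes called by edgeR. By DESeq2 0 rose and 1 fell in Strain, and 1 rose and 2 fell in No Strain, beside 18.9% and 23.5% of all genes. The gene that fell in both by edgeR was Foxo1, a forkhead transcription factor of the group known to activate Bcl2l11 and Bbc3. It read 46.7, 40.0, 52.7, 46.0 and 45.2 CPM in TD, 35.7, 30.8, 38.9 and 37.0 CPM in Strain, and 35.9, 36.0 and 31.0 CPM in No Strain, with no overlap. The log2 fold change was -0.37 (SE 0.0900, adjusted p = 0.0236) and -0.43 (SE 0.0988, adjusted p = 0.0148), while Bcl2l11 was higher in the same libraries. The Strain call was lost without Strain replicate 2 (adjusted p = 0.0628) and the No Strain call without No Strain replicate 3 (0.0683). The Strain call was also lost with the title letter as a covariate (-0.33, adjusted p = 0.0874). With the muscle list the values of Foxo1 were -0.32 (adjusted p = 0.589, edgeR) and -0.39 (adjusted p = 0.137, edgeR). With the neutrophil list the values of Foxo1 were 0.018 and 0.15, without a call. Its relative Foxo3 gave -0.16 (adjusted p = 0.152) and -0.0041 (adjusted p = 0.980). Mdm2, the ubiquitin ligase of p53, rose in No Strain by 0.33 (SE 0.0857, adjusted p = 0.0231), from 75.3 to 94.8 CPM, a call lost without TD replicate 2 or any 1 No Strain library (0.0531 to 0.0689) and with library totals as the scaling (0.0656). It was 0.51 with the neutrophil list as a covariate, without a call. Trp53 itself gave 0.07 (adjusted p = 0.436) and 0.06 (adjusted p = 0.565), and Cdkn1a, a p53 target, 0.02 (adjusted p = 0.929) and 0.29 (adjusted p = 0.131).

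Foxo1, a forkhead gene, passed the test in both comparisons with TD, with the limits given above. The promoter windows of the members were then searched for the forkhead letters GTAAACA on either strand (TGTTTAC on the other). The windows were the 300 bases from 250 before to 50 after each annotated start in RefSeq on GRCm38.p6, where 9 of the members had 15 windows. The letters occurred in 2 of these 15 and in 3.65% of all 32851 windows of that length. The matches are shown with 12 bases on each side and the motif in capitals.
Bcl2l11 (chr2:128125799-128125829, plus strand): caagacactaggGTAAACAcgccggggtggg
Bbc3 (chr7:16310082-16310112, plus strand): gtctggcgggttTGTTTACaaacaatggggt
They lie 227 bases before a start of Bcl2l11 and 167 bases before a start of Bbc3, and neither stretch overlaps an annotated exon. The transcript of the first was higher in both patch groups and that of the second was not called in either. A match of letters is no evidence of binding, and a link to Foxo1 was not tested.

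Of 5 outer membrane partners, none passed in Strain by edgeR or DESeq2, where Vdac1 (log2 fold change -0.25) had an unadjusted p under 0.05. In No Strain 1 rose, where 17.8% of all genes were called. That gene was Vdac2, which encodes the channel protein that holds BAK at the mitochondrion. It went from 179 ± 9.91 CPM in TD to 217 ± 12.5 CPM in No Strain, a log2 fold change of 0.27 (SE 0.0808, adjusted p = 0.0375, edgeR), and in Strain it was 199 ± 20.1 CPM (0.15, adjusted p = 0.199, edgeR). The call was lost when any one of 7 libraries was left out. These were TD replicates 1, 2, 4 and 5, No Strain replicates 1 and 3 and Strain replicate 3. Scaling libraries by their totals alone also lost the call (adjusted p = 0.0966, edgeR). With the muscle list the No Strain value of Vdac2 was 0.37 (adjusted p = 0.0822, edgeR). With the neutrophil list it was 0.24 (adjusted p = 0.923, edgeR). In Strain against No Strain no gene of these 5 lists passed the test by edgeR or DESeq2, which called 0% and 0.192% of all genes there. At an unadjusted p under 0.05 the lists held 1 gene there, Diablo, whose product counters the inhibitors of apoptosis (0.33, SE 0.148, adjusted p = 0.872, edgeR), named after its value was seen.

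**Figure D5:**
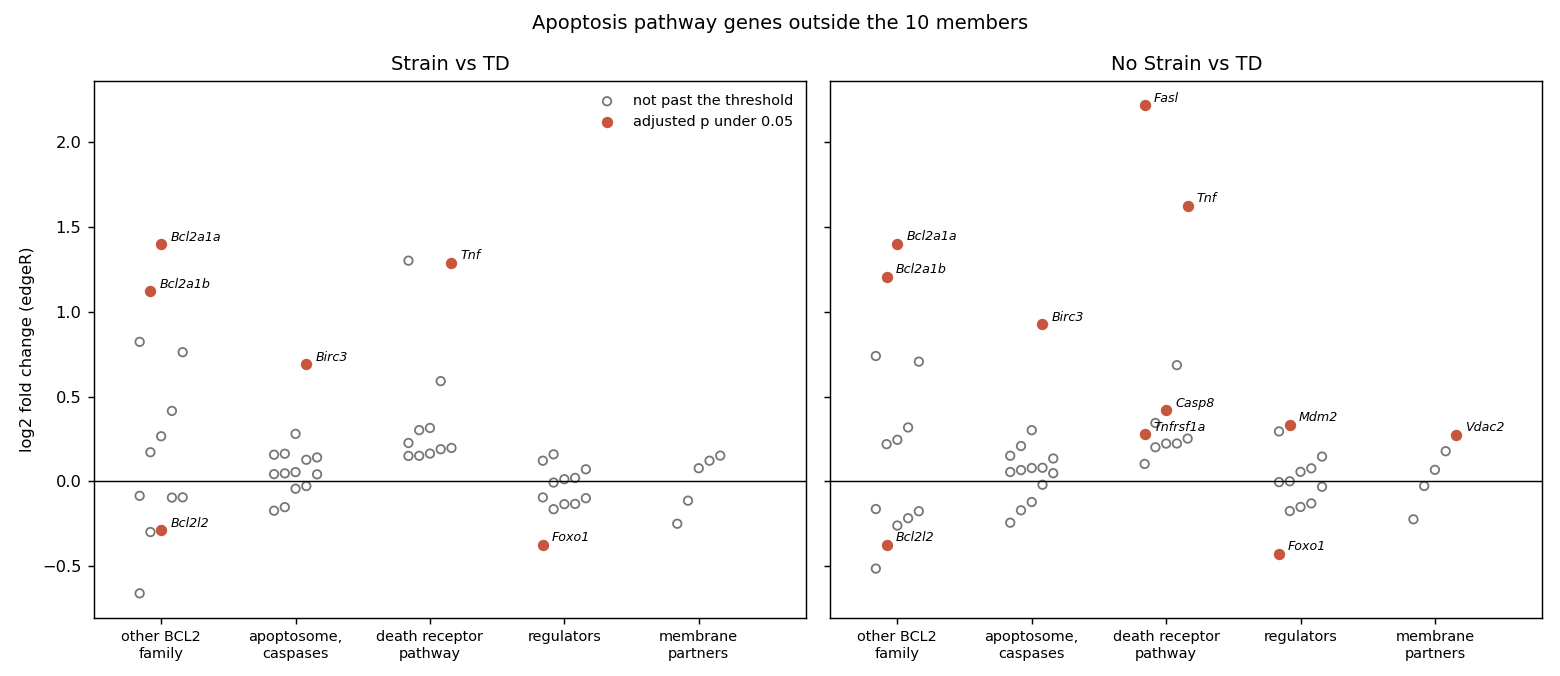
Log2 fold change of the tested genes of the 5 pathway lists in Strain against TD and in No Strain against TD, with 1 column per list. Genes past an adjusted p of 0.05 are marked and named; Bcl2a1a, Bcl2a1b, Tnf and Birc3 rise in both panels, and Bcl2l2 and Foxo1 fall in both.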

How the data were processed

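RNA of 12 wounds was measured by poly(A)-selected RNA-seq. Each library has 1 deposited file of unnormalized counts, whole numbers listed by Ensembl gene. The submitters' processing notes name GRCm38, bcl2fastq 2.17, FastQC, cutadapt, STAR, featureCounts and DESeq2, with no role or order. How strand and multi-mapping reads were handled is not given in the sources used here. Identifiers were paired with GENCODE M21 symbols.

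Groups came from the group label. Genes were kept by filterByExpr (minimum count 10, minimum total 15). All 12 libraries entered 1 edgeR 4.0.16 quasi-likelihood fit with robust spread and TMM (trimmed mean of M-values) scaling, in R 4.3.3, with Benjamini-Hochberg adjustment over 18618 genes and a threshold of 0.05. The fit was tested on simulated data. Standard errors came from the fold change and its F statistic. Log2 CPM used a prior count of 2, and FPKM the summed exon length.

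The members and lists were chosen with earlier results of these data known. All members are described. Of the pathway lists, genes past the threshold are named, up to 3 per direction, list and comparison with TD. Of the listed apoptosome and caspase genes, 2 are not reported here. Alternatives were other scalings, DESeq2 1.42.0, no filter, only the 2 groups compared, the title letter or the muscle list as a covariate, and leaving out each library. A covariate for the neutrophil list was added after seeing the data. The intervals cover the spread between libraries.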

Additional observations from a re-analysis of the deposited data

How the results depend on the processing

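No paired analysis was possible because the groups share no title number and replicates were numbered in accession order. Scaling by DESeq2 size factors or library totals, or testing without the filter on low counts, left all 30 member values with the same direction and call. Library totals moved the all-gene split in No Strain against TD from 1741 higher and 1564 lower to 1257 and 2046. The number of members called was 2 in Strain against TD and 4 in No Strain against TD. With a covariate for the muscle list it was 0 and 0, when 1 and 491 of all genes were called, and 0 and 0 with the neutrophil list, when no gene was. Both lists track the groups, so these fits cannot tell list and patch apart. For the pathway genes called by edgeR against TD, 22 fold changes were followed. With the muscle list 15 of them lost their call, and 7 kept their direction and call status. Leaving out 1 library gave 1 to 3 members in Strain (1 without Strain replicate 2, when 882 genes of all were called). In No Strain it gave 2 to 5 members (2 without No Strain replicate 3, when 1505 genes were). DESeq2 gave 3 and 5, and called 3518 and 4372 genes of all, beside 2349 and 3305. The title letter as a covariate left 798 genes called in Strain and 2145 in No Strain; without the filter 1527 were called in Strain.

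Signs turned for some log2 fold changes. With the muscle list Bcl2 gave 0.13 in Strain and 0.083 in No Strain against TD and 0.050 between the patches, and Pmaip1 -0.024 in Strain. With the neutrophil list, Strain against TD gave 0.30 for Bcl2, -0.018 for Mcl1, 0.084 for Bbc3, -0.21 for Pmaip1, -0.20 for Bad, 0.018 for Foxo1 and -0.0032 for Tnfrsf1a. No Strain against TD gave 0.62 for Bcl2, -0.057 for Mcl1, 0.076 for Bbc3, -0.095 for Pmaip1, -0.45 for Bad, 0.15 for Foxo1 and -0.016 for Tnfrsf1a, and Mcl1 gave 0.039 between the patches. Without Strain replicate 2, Bcl2l1 gave -0.027 in Strain against TD (range over libraries left out -0.027 to 0.16), and without Strain replicate 4, Bcl2 gave 0.018 between the patches (range -0.23 to 0.018). The cause of these turns was not tested. Depth limits the precision of Fasl, with 1 to 36 counts a library.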
